A study of Mus musculus with 42 samples.

Results

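The 42 genes described here encode the machinery of cell division, from the cyclins and replication factors that start DNA synthesis to the motors that part the daughter cells, with 3 inhibitors of the cyclin-dependent kinases (CDKs). They were chosen by gene symbol, and a gene counts as measured where a probe set on the array is listed with that symbol alone. Of the 42 genes, 41 were measured, by 93 of the 45101 probe sets. For Ccnb1 (cyclin B1) the annotation used here lists no such probe set, and it was not analysed here. The 41 genes stand among 18194 genes with a probe set of their own.

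Each of 42 arrays held RNA of 1 culture of synovial fibroblasts, which build and repair the matrix of the joint lining. The donors were female mice of the BALB/c strain with arthritis, raised by immunizing them with PG (proteoglycan) of cartilage in DDA adjuvant. They were either wild-type or labelled as TSG-6 knockout, that is without Tnfaip6, which encodes a secreted protein that binds hyaluronan. Both genotypes were expanded in medium with 10% FCS (fetal calf serum), for 6 passages at most, and kept overnight in 0.5% serum. They were then treated for 12 h, or left untreated, in medium low in serum. Of the 15 wild-type cultures, 5 were untreated and 2 each received TNFa (5 ng/ml), LPS (200 ng/ml), recombinant mouse TSG-6 (120 ug/ml), hyaluronan (HA, 24 ug/ml) or TSG-6 with HA at those doses. Of the 27 knockout-labelled cultures, 8 were untreated, 3 received TSG-6 and 4 each received TNFa, LPS, HA or TSG-6 with HA. The labels call the cultures biological replicates but do not say that each came from an animal of its own, so the p-values measure only the spread between these cultures. Cells were released from dissected synovial tissue by enzymes, and the labels name no selection for fibroblasts other than passage.

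Each deposited value is a log2 expression value minus the median of its probe set over the 42 arrays, so a value of 0 is the middle array and not an absence of signal. Values can therefore be compared between arrays for 1 gene but not between genes, and whether a gene was above background cannot be read. In the text below "level" means this centred log2 value, and "difference" means a difference of group means ± SE from limma, a linear model fitted to all 42 arrays over 18194 genes. A gene is said to have passed the test, or to have risen or fallen, where its p-value adjusted by the Benjamini-Hochberg method over those genes was under 0.05. Because RNA was taken from whole cultures, fewer dividing cells and less RNA per dividing cell cannot be told apart.

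Some facts of the whole series touch every result below. The single probe set of Tnfaip6 did not separate the genotypes (untreated difference 0.26 ± 0.16, adjusted p = 0.220 in limma), with levels of -0.55 to 0.45 over the wild-type arrays and -0.41 to 0.89 over the knockout-labelled ones. No source used here says whether it lies in the deleted stretch, so it checks no label and the groups are named as labelled. Within each genotype the arrays formed a pair of sets that no label names, of 8 and 7 arrays in the wild-type and of 14 and 13 in the knockout-labelled cultures. They are called set a and set b, and they were rebuilt here from probe sets of other genes. In the wild-type arrays the 18S ribosomal RNA probe set moved with them (mean -0.67 in set a and 2.38 in set b).

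Division is driven by CDKs, whose partner cyclins are made and destroyed in turn. D-type and E-type cyclins release the E2F factors from the retinoblastoma protein, and E2F factors switch on the genes of DNA replication. Cyclin A and B with Cdk1 then bring the cell into mitosis, whose genes are known to be held off in resting cells by the DREAM complex through a promoter element called the cell cycle genes homology region (CHR), often beside CCAAT boxes bound by NF-Y. In the arthritic joint, synovial fibroblasts accumulate in the thickened lining, and serum withdrawal is the usual way to halt them in culture.

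A few promoters are printed here because the mitosis and the replication genes are described apart below and their windows differed in the words for the CHR and for E2F. Windows from 250 bases before to 50 bases after the start came from RefSeq (GRCm38.p6), and 34 of the 41 measured genes were matched. Both strands were searched for TTTGAA (the CHR), for CCAAT, and for either of TTCCCGC and TTCGCGC (E2F). None of these words lies within another. The stretches below run 5′ to 3′ on the gene's strand and end before the start. They were chosen after the matches had been seen, and capitals mark the matches, which read TTCAAA for the CHR, ATTGG for CCAAT, and GCGGGAA or GCGCGAA for the E2F words where they lie on the opposite strand. The first 5 belong to mitosis genes with a CHR and CCAAT.
Mki67, chr7:135716460-135716579 (- strand): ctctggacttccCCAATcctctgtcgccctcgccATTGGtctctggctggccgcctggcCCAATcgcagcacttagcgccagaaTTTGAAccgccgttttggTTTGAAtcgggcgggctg
Kif11, chr19:37376325-37376380 (+ strand): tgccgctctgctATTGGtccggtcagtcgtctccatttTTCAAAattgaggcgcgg
Top2a, chr11:99024195-99024299 (- strand): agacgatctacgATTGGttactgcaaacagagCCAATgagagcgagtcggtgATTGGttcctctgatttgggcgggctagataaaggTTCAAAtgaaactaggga
Cdc20, chr4:118437344-118437408 (- strand): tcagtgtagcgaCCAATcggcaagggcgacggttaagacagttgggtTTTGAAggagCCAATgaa
Prc1, chr7:80294402-80294463 (+ strand): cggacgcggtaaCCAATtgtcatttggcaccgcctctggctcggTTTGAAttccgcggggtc

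The next 3 belong to replication genes with an E2F word and CCAAT, and the last to the CDK inhibitor gene Cdkn2c.
Mcm5, chr8:75109345-75109503 (+ strand): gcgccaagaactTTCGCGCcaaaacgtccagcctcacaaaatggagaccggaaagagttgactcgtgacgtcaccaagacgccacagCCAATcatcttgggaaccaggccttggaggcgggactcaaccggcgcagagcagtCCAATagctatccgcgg
Mcm6, chr1:128359706-128359823 (- strand): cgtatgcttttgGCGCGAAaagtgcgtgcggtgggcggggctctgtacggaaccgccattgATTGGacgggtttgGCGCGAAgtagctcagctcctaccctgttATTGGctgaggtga
Rrm1, chr7:102441592-102441666 (+ strand): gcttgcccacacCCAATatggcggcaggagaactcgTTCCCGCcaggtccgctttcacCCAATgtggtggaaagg
Cdkn2c, chr4:109666763-109666793 (- strand): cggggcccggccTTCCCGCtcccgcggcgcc

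A CHR was found in 16 of the 20 matched mitosis genes (80.0%) and in 20.2% of the windows of 27025 genes. CCAAT was in 17 of those 20 (85.0%), against 41.1% of all genes, and both words together were in 15 (75.0%), against 7.97%. Among the 9 matched replication genes 5 held an E2F word (55.6%), against 6.86% of all genes, and Mcm2 was the 1 with a CHR. CCAAT was in 8 of those 9 (88.9%), so it did not set the mitosis and the replication genes apart. Of the mitosis genes, Cdk1 was the 1 with an E2F word. Cdkn2c and Cdkn2a held an E2F word and no CHR, and Cdkn1a held neither. A match is a string of letters and does not show that a factor was bound.

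In untreated cultures the genes of cell division were lower in the knockout-labelled arrays almost throughout. The question of this comparison is how the genotypes differ before any treatment. Of the 41 genes, 36 were lower (87.8%, against 16.3% of all genes tested) and 2 were higher (4.88%, against 21.3%). The 2 higher genes, Cdkn2c and Cdkn1a, encode CDK inhibitors. At least 2-fold lower were 31 genes, and 21 were at least 4-fold lower. The median difference was -2.01 over the 41 genes and 0.03 over all genes. The 3 that did not pass the test were Cdkn2a (0.88 ± 0.38, adjusted p = 0.0644), Tyms (-0.20 ± 0.10, adjusted p = 0.139) and E2f1 (-0.03 ± 0.10, adjusted p = 0.889). The untreated arrays of the genotypes did not overlap for 33 genes lower in the knockout-labelled arrays (9.52% of all genes) and for 2 that were higher (13.7%).

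**Figure D1:**
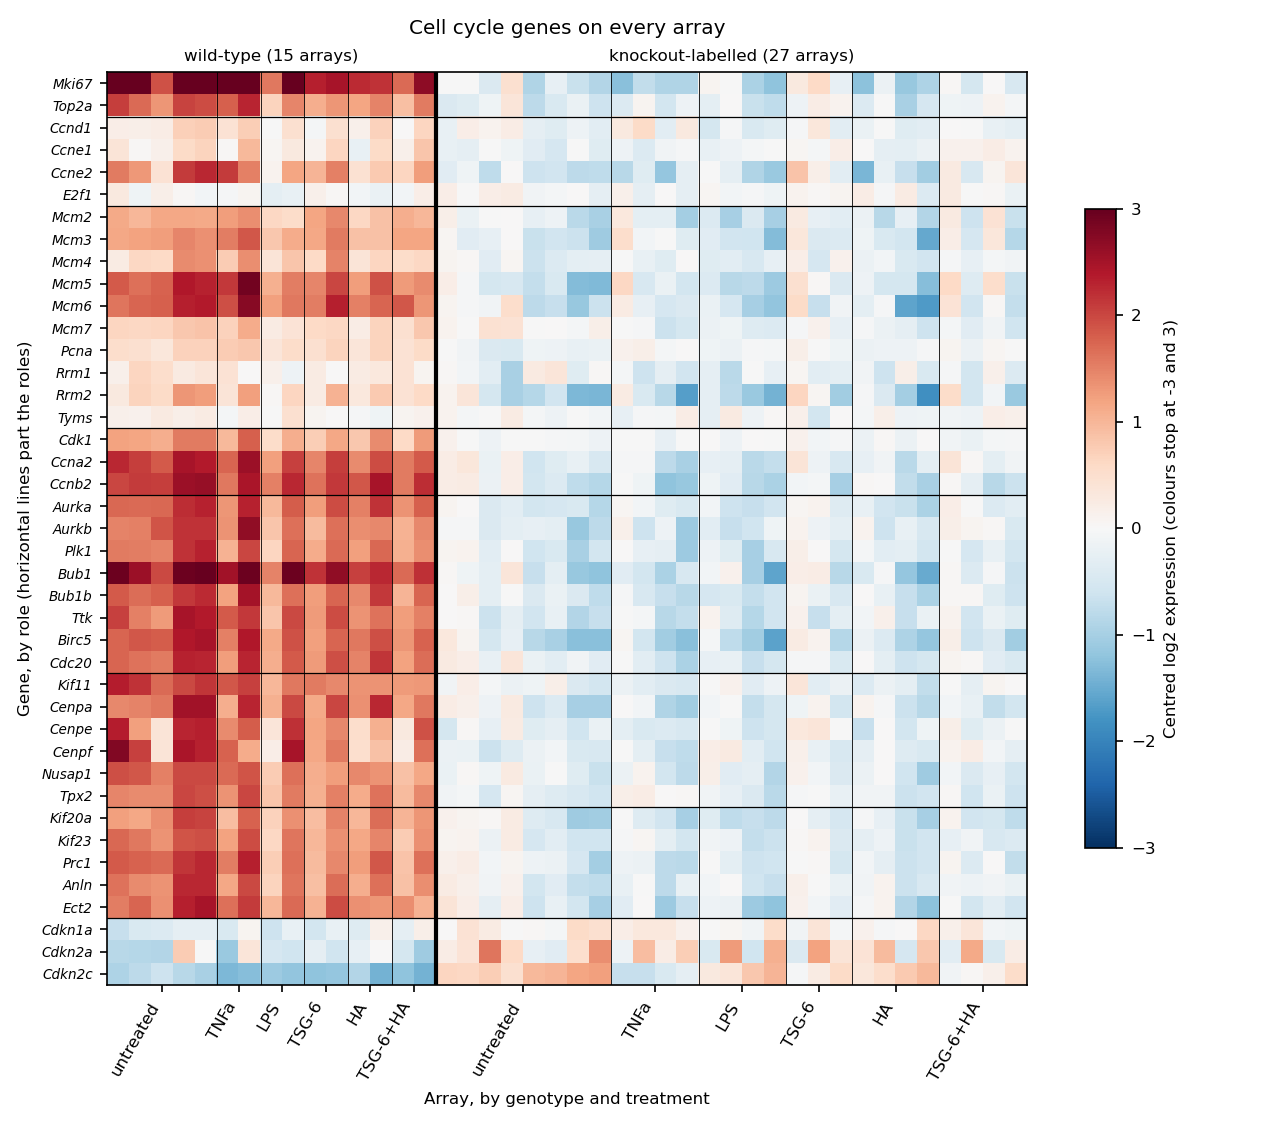
Centred log2 expression of the 41 measured cell cycle genes (rows, by role) on all 42 arrays (columns, by genotype and treatment), red above and blue below each gene's median over the arrays. The wild-type block is red for all genes from the proliferation markers to cytokinesis except parts of the G1/S rows, Rrm1 and Tyms, and the order of colours turns over in the bottom rows, Cdkn1a, Cdkn2a and Cdkn2c.

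The proliferation markers Mki67 and Top2a were both lower. Mki67, whose protein Ki-67 coats mitotic chromosomes and is absent from resting cells, had levels of 3.59, 3.01, 1.92, 3.27 and 3.31 in the 5 untreated wild-type cultures. In the 8 untreated knockout-labelled cultures it ran from -0.91 to 0.49, with a median of -0.34. Every wild-type culture lay above every knockout-labelled one, and replicate 3 was the lowest of the wild-type. The difference was -3.35 ± 0.27 (10.2-fold lower, adjusted p = 1.47e-12). Top2a, the topoisomerase that untangles sister chromatids, differed by -2.15 ± 0.18 (4.43-fold lower, adjusted p = 2.42e-12).

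Among the G1/S regulators 3 of 4 were lower, and by unequal amounts. Ccne2, which encodes cyclin E2, a partner of Cdk2 at the start of S phase, had levels of 1.55, 1.30, 0.43, 2.10 and 2.27 in the wild-type cultures and of -0.79 to 0.02 (median -0.60) in the knockout-labelled ones. The groups did not overlap, although wild-type replicate 3 came near the highest knockout-labelled culture. The difference was -2.02 ± 0.26 (adjusted p = 6.04e-08). Its paralog Ccne1 differed by -0.60 ± 0.14 (1.51-fold lower, adjusted p = 0.000501). For Ccnd1 (cyclin D1, the growth factor sensor of G1) the wild-type levels were 0.20, 0.18, 0.22, 0.73 and 0.77, against -0.36 to 0.23 (median -0.19). Here the groups overlapped, since wild-type replicates 1 to 3 lay below the highest knockout-labelled culture, and the difference was -0.52 ± 0.15 (1.43-fold lower, adjusted p = 0.00686). Without the 15 arrays rich in 18S (above 1) the Ccnd1 difference was -0.38 ± 0.16 (adjusted p = 0.0677). E2f1, a founding member of the E2F activators, had an SD of 0.173 over the 42 arrays, and the other 2 probe sets of the gene did not pass either.

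Of the 10 DNA replication genes 9 were lower, with a median difference of -1.24. Mcm5, a subunit of the helicase ring that opens the double strand, had levels of 1.84, 1.64, 1.78, 2.40 and 2.31 in the wild-type cultures. In the knockout-labelled cultures it ran from -1.33 to 0.21 with a median of -0.50. The groups were more than 1 log2 unit apart at their nearest, and the difference was -2.57 ± 0.25 (5.94-fold lower, adjusted p = 1.62e-10). The other helicase subunits fell between Mcm6 (-2.31 ± 0.28) and Mcm7 (-0.57 ± 0.12, adjusted p = 0.000206). Among the enzymes that supply nucleotides, Rrm2, the S-phase subunit of ribonucleotide reductase, differed by -1.47 ± 0.34, its partner Rrm1 by -0.52 ± 0.17 (adjusted p = 0.0154), and the arrays of the genotypes overlapped for both. Pcna, the sliding clamp of the replication fork, differed by only -0.77 but with the smallest SE of the 41 genes, 0.08 (adjusted p = 4.22e-10). Tyms, thymidylate synthase, did not pass with the probe set used, while another of its probe sets was lower (adjusted p = 0.0254 over all probe sets).

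All 24 measured genes of the proliferation markers, G2/M cyclins, mitotic kinases, spindle and cytokinesis (called the mitosis genes below) were lower, with a median difference of -2.16. Ccna2, cyclin A2, had levels of 2.26, 2.08, 1.85, 2.47 and 2.38 in the wild-type cultures and -0.61 to 0.35 (median -0.21) in the knockout-labelled ones, a difference of -2.35 ± 0.20 (adjusted p = 4.13e-12). Ccnb2, cyclin B2, differed by -2.54 ± 0.25, and Cdk1, the mitotic kinase itself, by -1.36 ± 0.12, the smallest difference of the 24 mitosis genes.

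The 8 mitotic kinase and checkpoint genes lay between Bub1 (-3.11 ± 0.29, 8.65-fold lower) and Cdc20 (-1.95 ± 0.19). Aurka, the kinase of centrosome maturation, had levels of 1.72, 1.70, 1.72, 2.21 and 2.30 in the wild-type cultures, with replicates 4 and 5 above the others, and -0.84 to 0.07 (median -0.46) in the knockout-labelled ones. Its difference was -2.31 ± 0.18 (4.97-fold lower, adjusted p = 9.42e-13). Birc5 (survivin) differed by -2.64 ± 0.28, and Aurkb, its partner in the chromosomal passenger complex, by -2.26 ± 0.21. The spindle checkpoint genes Ttk and Bub1b differed by -2.34 ± 0.22 and -2.18 ± 0.20, and Plk1, a kinase of mitotic entry, by -2.15 ± 0.22.

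Kif11, the motor that pushes the spindle poles apart, had the smallest adjusted p of the 41 genes (2.23e-16). Its levels were 2.35, 2.17, 1.71, 1.98 and 2.15 in the wild-type cultures and -0.55 to 0.20 (median -0.11) in the knockout-labelled ones, so the groups were more than 1 log2 unit apart at their nearest. The difference was -2.21 ± 0.13 (4.61-fold lower). The other spindle and kinetochore genes ran from Cenpf (-2.32 ± 0.30) to Tpx2 (-1.94 ± 0.16). In cytokinesis the range was narrow, from Prc1 (-2.13 ± 0.20), which bundles microtubules of the central spindle, to Kif20a (-1.89 ± 0.23). Kif23, a motor of the same central spindle, had levels of 1.72, 1.58, 1.36, 1.88 and 1.93 in the wild-type cultures. It ran from -0.60 to 0.25 (median -0.24) in the knockout-labelled cultures, with no overlap (difference -1.91 ± 0.17, adjusted p = 2.34e-11).

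**Figure D2:**
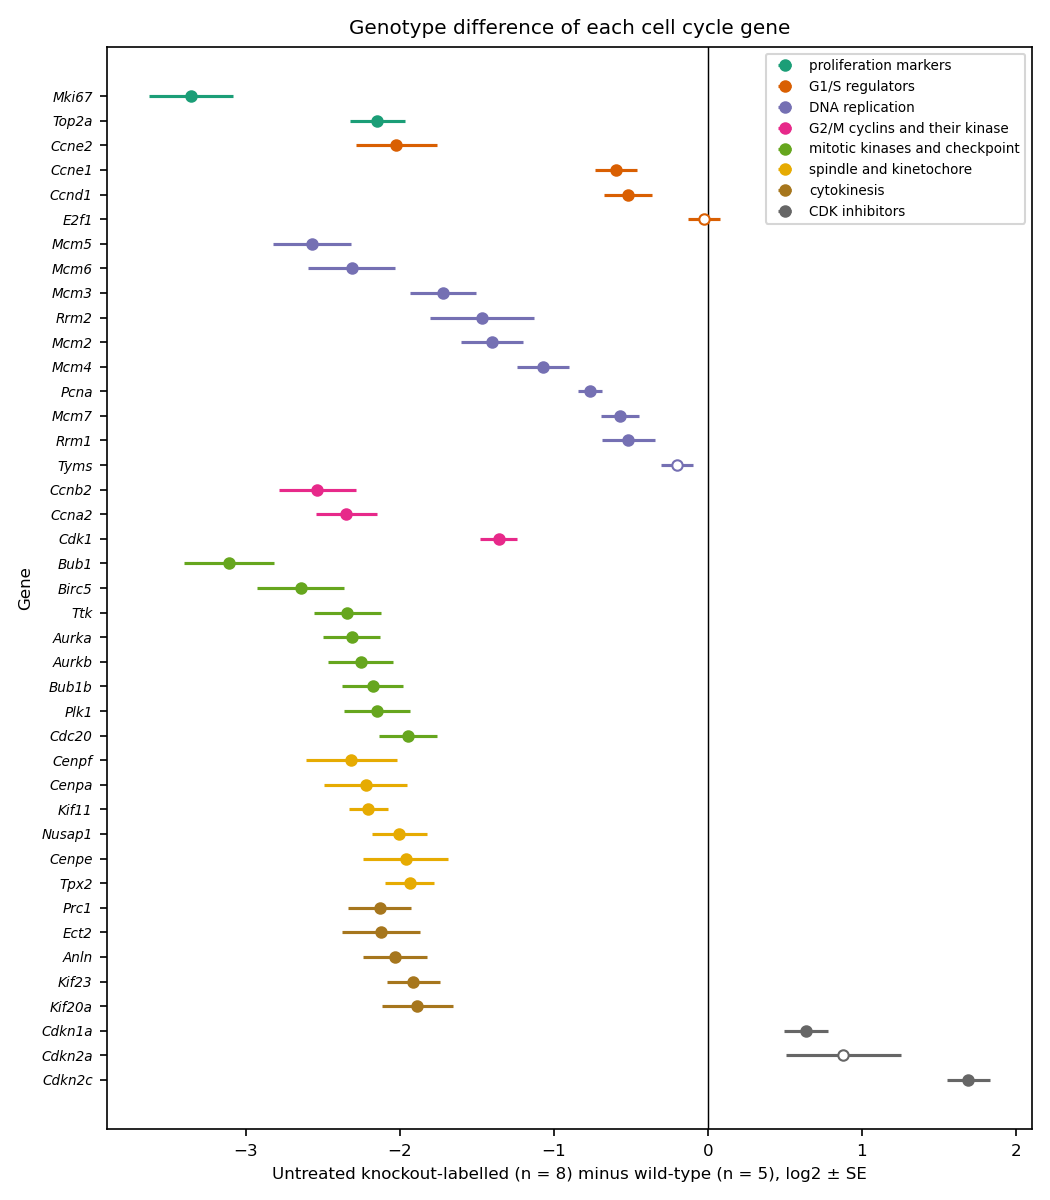
Difference between untreated knockout-labelled (n = 8) and wild-type (n = 5) cultures for each of the 41 genes, in log2 units ± SE, coloured by role; filled points passed the test and open points did not. All 24 mitosis genes lie left of -1, the replication genes spread from -2.57 to -0.20, and the 3 CDK inhibitors lie right of 0.

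The CDK inhibitors were on the other side. Cdkn2c, which encodes p18, an inhibitor of Cdk4 and Cdk6, had levels of -0.93, -0.79, -0.63, -0.83 and -0.96 in the untreated wild-type cultures and of 0.49 to 1.23 (median 0.85) in the knockout-labelled ones. The groups were more than 1 log2 unit apart, and the difference was 1.69 ± 0.14 (3.23-fold higher, adjusted p = 2.30e-12). Cdkn1a, which encodes p21, the inhibitor induced by p53, had levels of -0.69, -0.46, -0.41, -0.27 and -0.28 against -0.07 to 0.57 (median 0.15). These groups also did not overlap, with a smaller difference of 0.64 ± 0.14 (1.55-fold higher, adjusted p = 0.000360). For Cdkn2a, the locus of p16 and p19ARF, the wild-type levels were -0.82, -0.86, -0.87, 0.76 and 0.00, against -0.33 to 1.61 (median 0.46). Wild-type replicates 4 and 5 lay inside the knockout-labelled range. Without replicate 4 the difference was 1.16 ± 0.39 (adjusted p = 0.0173 in limma). It also passed without knockout-labelled replicate 5 or 6.

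Genes of the same pathways outside the 42 were counted in lists, which were chosen with earlier results of these data known. Of 35 further replication genes 32 were lower and 0 higher, and the 4 with the smallest adjusted p were Clspn, Rad51ap1, Cdc45 and Tk1 (-1.46, -2.15, -1.41 and -2.48). Of 58 further mitosis genes 55 were lower and 0 higher, led by Gas2l3 (-3.19 ± 0.20), Kntc1 (-1.73), Stil (-1.72) and Ska1 (-1.71). The list of 27 further G1/S regulators was mixed, with 6 higher and 14 lower. E2f7, a repressor that E2F factors themselves induce, was lower (-2.91 ± 0.19) and so was Cdk2 (-1.10 ± 0.09). The inhibitors Cdkn1c (p57) and Cdkn2b (p15) were higher, by 2.24 ± 0.17 and 1.07 ± 0.08. Of 19 measured p53 target genes 7 were higher and 4 lower. Among them Gadd45b (1.12 ± 0.14) and Gadd45a (0.62 ± 0.08) were higher and Plk3 (-1.24 ± 0.14) and Plk2 (-0.66 ± 0.11) lower.

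Markers of other cell types moved with the genotype. Of 13 endothelial marker genes 12 were lower in the untreated knockout-labelled cultures, with a median difference of -4.53. Tie1, an endothelial receptor, differed by -5.42 ± 0.21 and Egfl7 by -5.21 ± 0.25. The mean of the 13 markers lay between 3.37 and 3.71 on the untreated wild-type arrays and between -1.27 and 0.28 on the knockout-labelled ones. Of 4 chondrocyte markers 3 were higher (Comp, Sox9 and Col2a1), and the differences of the 4 ran from 0.06 to 4.42. The same 3 were also higher in the knockout-labelled cultures under each treatment. Of 11 fibroblast markers 4 were higher and 4 lower, and of 6 mural and smooth muscle markers 2 were lower (Myl9 and Tagln). Of 3 measured adipocyte markers 1 was higher and 1 lower. Of 10 macrophage and leukocyte markers 1 was lower (Lyz2), and of 4 lymphocyte markers 0 passed the test. The part of these markers in the differences of the cell cycle genes was not tested. Between the sets the endothelial and the mitosis means did not keep 1 order. Wild-type set a was higher than set b in the endothelial mean (3.49 and 3.13) but lower in the mean of the 24 mitosis genes (1.41 and 1.96). Knockout-labelled set a was higher than set b in both (-0.10 and -1.21, then -0.09 and -0.56). Among the arrays of 1 set the means of both lists correlated with r = 0.664 in wild-type set a (8 arrays), 0.424 in set b (7), 0.437 in knockout-labelled set a (14) and -0.186 in set b (13), over arrays that share treatments.

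**Figure D3:**
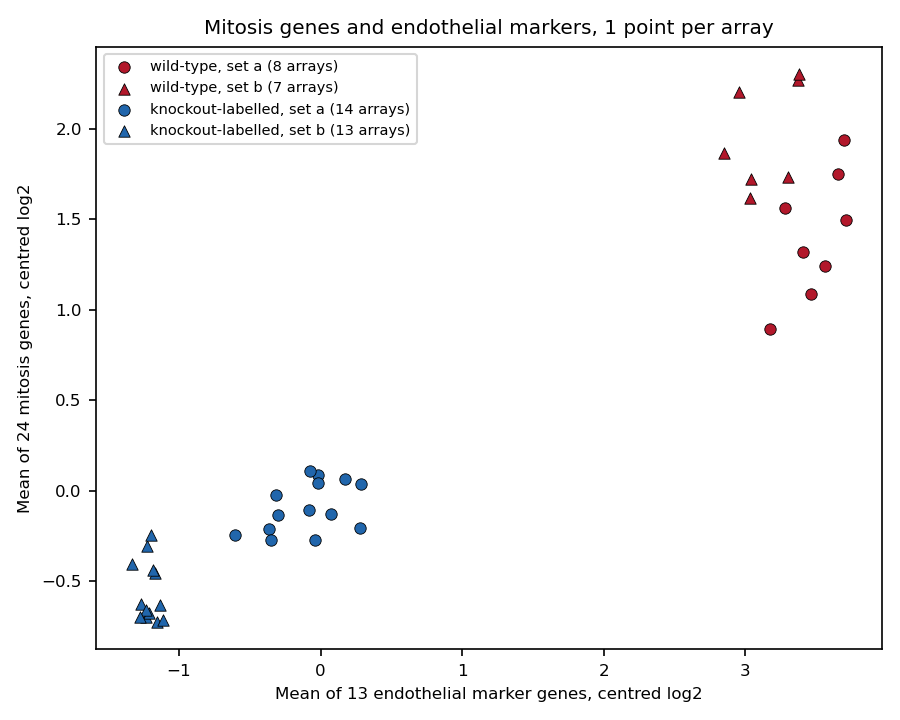
Mean of the 24 mitosis genes against the mean of 13 endothelial marker genes, both in centred log2 units, with 1 point per array, coloured by genotype and shaped by culture set. The genotypes form separate clouds, and in the wild-type cloud the set with the lower endothelial mean (b) has the higher mitosis mean.

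The genotype difference was also taken within the sets. In all 4 pairings of a wild-type with a knockout-labelled set, 33 of the 41 genes were lower (8.21% of all genes were) and Cdkn2c was higher (11.1% of all genes were). Mki67 differed by -2.83 ± 0.30 in the nearest pairing, set a of both genotypes, and by -3.97 ± 0.34 in the farthest, set b of both. Cdkn2c differed by 1.41 ± 0.11 and 2.00 ± 0.13 in the same pairings, and Cdkn1a by 0.69 ± 0.18 and 0.53 ± 0.20. Cdkn1a did not pass between knockout-labelled set a and wild-type set b (0.44 ± 0.20, adjusted p = 0.103). With the set as a random block 35 genes were lower (14.2% of all genes) and 2 higher (18.7%).

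The sets themselves differed in these genes. They were found within each genotype, and no label ties a letter in 1 genotype to the same letter in the other. Among untreated wild-type cultures 10 genes were higher in set b than in set a (3.98% of all genes), and among knockout-labelled ones 14 were lower (3.24%) and 1 higher (1.40%). Cenpa, the histone of the centromere, was higher in wild-type set b by 1.00 (adjusted p = 0.000173) and differed by -0.89 between the knockout-labelled sets (adjusted p = 2.51e-05). Cdkn2c was the 1 gene higher in knockout-labelled set b (0.47, adjusted p = 0.00635). These limma values compare sets of arrays, whose origin no label names.

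The genotype difference was present under each treatment as well. With TNFa 34 genes were lower (9.88% of all genes) and 1 higher (13.6%), with LPS 32 and 1 (10.6% and 13.4%), and with TSG-6 30 and 1 (8.68% and 10.3%). With HA 33 were lower and 1 higher (10.1% and 13.2%), and with TSG-6 and HA together 29 and 1 (9.61% and 12.0%). The 1 higher gene was Cdkn2c each time, by 0.79 ± 0.21 with TNFa (adjusted p = 0.00485) and by 1.44 to 1.80 with the other treatments. Cdkn1a, Cdkn2a, E2f1, Tyms and Rrm1 did not pass under any treatment. Mki67 was lower by 21.6-fold with TNFa (-4.43 ± 0.41), 7.17-fold with LPS, 4.57-fold with TSG-6, 8.41-fold with HA and 5.36-fold with TSG-6 and HA. With 2 wild-type arrays a group, single arrays weighed heavily. Without wild-type TSG-6 replicate 2 the count with TSG-6 was 16. Leaving out the 15 arrays rich in 18S gave 19 with LPS and 12 with TSG-6 and HA. The counts with arrays left out stand without shares of all genes. They do not show whether the cell cycle genes lost more calls than other genes.

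Over all treatments, the 15 wild-type arrays lay wholly above the 27 knockout-labelled arrays for 28 genes (4.55% of all genes), 22 of them mitosis and 6 replication genes. The 2 mitosis genes with overlap were Cenpe and Cenpf, kinetochore proteins whose wild-type levels reached down to 0.30 and 0.19. Cdkn2c overlapped through the TNFa-treated knockout-labelled cultures, as described below.

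In wild-type cultures no more than 1 of the 41 genes passed the test with any treatment in the fit without a block for the set. The fit with that block is given below and called more. Kif11 fell with LPS (-0.79 ± 0.19, adjusted p = 0.0230, 1 gene of 41, against 0.456% of all genes lower) and with TSG-6 and HA (-0.78 ± 0.19, adjusted p = 0.0337, against 0.434%). Its levels were 0.99 and 1.58 with LPS and 1.28 and 1.30 with TSG-6 and HA, all below the lowest untreated wild-type culture at 1.71. With TNFa, TSG-6 and HA 0 genes passed (2.56%, 0.429% and 0.132% of all genes did), and at an unadjusted p under 0.05 these were 1, 5 and 5 genes (9.51%, 3.96% and 4.09% of all genes). At that unadjusted p LPS gave 11 genes (26.8%, against 6.20% of all genes). The combination of TSG-6 and HA gave 10 (24.4%, against 8.71%), and all in both were lower. The Kif11 calls were not firm. After quantile normalization the differences were -0.33 ± 0.19 both times, and leaving out untreated replicate 1 or 2 ended both calls (-0.76 to -0.71). Leaving out LPS replicate 1 ended the call with LPS (-0.49), and leaving out either array of TSG-6 and HA ended the other (-0.77 and -0.79). That call also ended without untreated replicate 5 (-0.76) or without the arrays rich in 18S (-0.77, adjusted p = 0.276).

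The group means of the mitosis genes nonetheless lay on 1 side. Under LPS, TSG-6, HA and TSG-6 with HA, all 24 were below the untreated wild-type mean, and under TNFa 17 were. Their median difference was -0.56 with LPS, -0.42 with TSG-6, -0.40 with HA, -0.58 with TSG-6 and HA and -0.09 with TNFa, while the median over all genes was within 0.01 of 0 in each. These 5 comparisons share the 5 untreated arrays, so their common sign is not 5 observations. Nor are the 24 genes 24 observations, since they moved together from array to array (median r = 0.861 within groups, described below). The 13 endothelial markers had medians below 0 in the same comparisons, -0.48 with LPS, -0.11 with TSG-6, -0.30 with HA, -0.29 with TSG-6 and HA and -0.40 with TNFa. Of the 13, Cldn5, a tight junction gene, was the 1 that passed and was lower in all 5 (-2.40 ± 0.25 with LPS to -1.05 ± 0.25 with TSG-6), and the part of these markers in the mitosis values was not tested. Mki67 had levels of 3.69 and 3.28 with TNFa, 1.59 and 3.05 with LPS, 2.33 and 2.47 with TSG-6, 2.24 and 2.17 with HA and 1.69 and 2.68 with TSG-6 and HA. Each of these groups overlapped the untreated range, and its difference passed in none (0.46 ± 0.40 with TNFa, -0.84 ± 0.40 with TSG-6 and HA). The medians of the 10 replication genes were -0.39 with LPS, -0.07 with TSG-6, -0.30 with HA, -0.12 with TSG-6 and HA and 0.21 with TNFa. Ccnd1 moved by -0.20 to 0.16 and did not pass under any treatment. E2f1 gave -0.31 ± 0.15 with LPS (adjusted p = 0.777) and smaller values otherwise. Cdkn1a gave 0.00 ± 0.21 with LPS and 0.37 ± 0.21 with TSG-6 and HA (adjusted p = 0.660), and Cdkn2a ran from -0.44 to 0.24. Cdkn2c was below its untreated mean in all 5, from -0.31 ± 0.21 with LPS to -0.49 ± 0.21 with TNFa (adjusted p = 0.360). Its levels were -1.35 and -1.28 with TNFa, -1.09 and -1.18 with LPS, -1.22 and -1.17 with TSG-6 and -1.20 and -1.42 with TSG-6 and HA, all below the 5 untreated cultures at -0.96 to -0.63. With HA they were -0.87 and -1.42, and 1 overlapped.

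**Figure D4:**
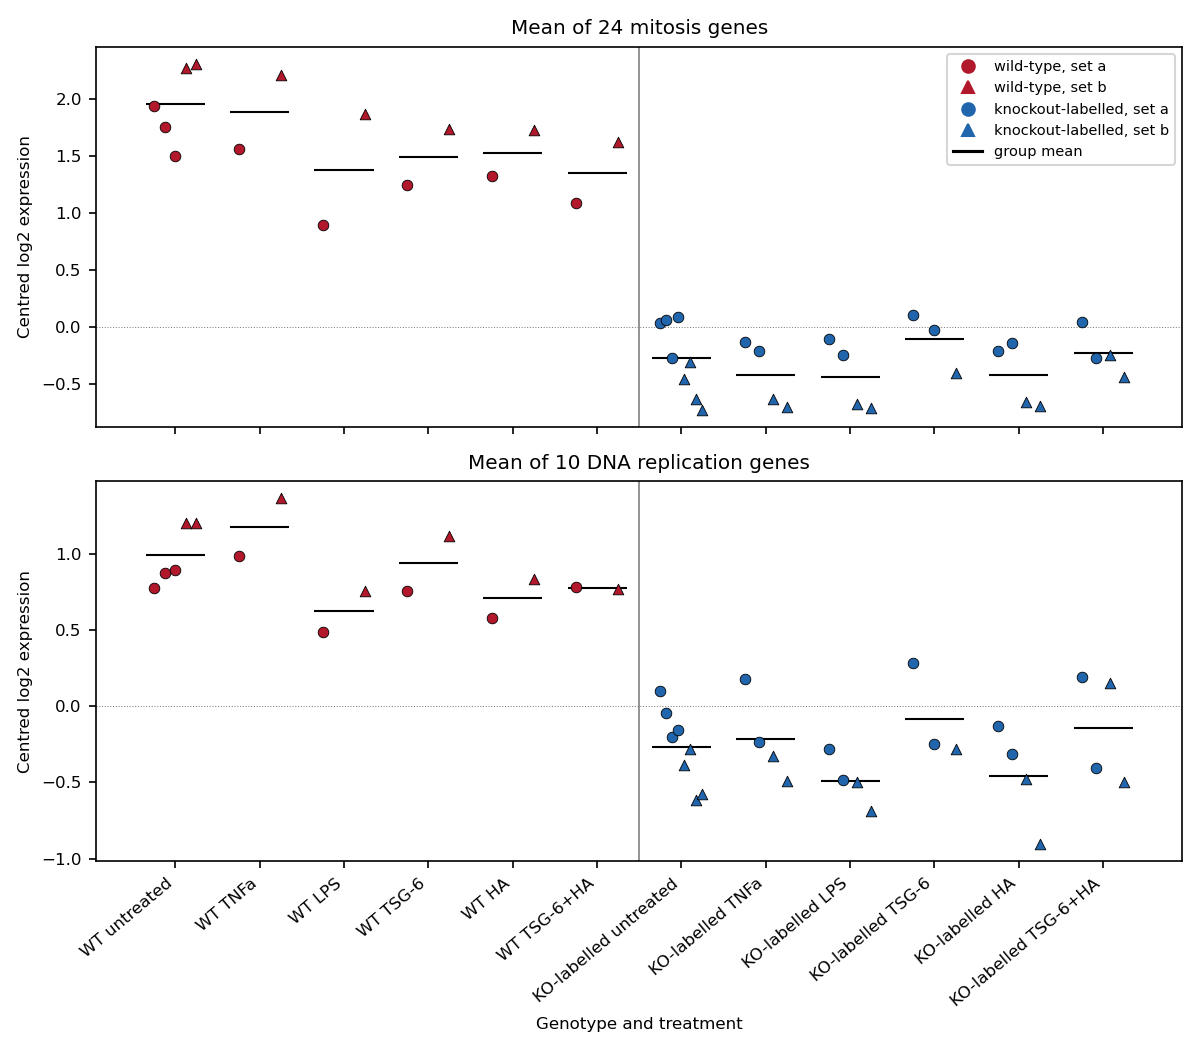
Mean of the 24 mitosis genes (top) and of the 10 DNA replication genes (bottom) on each array, in centred log2 units, by genotype and treatment; circles are set a, triangles set b and lines group means. Wild-type arrays of set b lie above those of set a in the top panel in each group, so both sets show the lower mitosis means with LPS, TSG-6, HA and TSG-6 with HA.

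Each treated wild-type group holds 1 array of each set, and the set moved the mitosis genes, so the fit was repeated with the set as a fixed block. Then 13 genes were lower with LPS (1.46% of all genes), 13 with TSG-6 and HA (1.59%), 4 with TSG-6 (0.500%), 1 with TNFa (2.54%) and 0 with HA (0.115%). The LPS calls included Cdk1 (-0.55, adjusted p = 0.000158), Kif23 (-0.64, adjusted p = 0.000771), Anln (-0.73) and Prc1 (-0.81). Cdk1, Kif23, Prc1 and Anln were also the 4 genes called with TSG-6, by -0.43, -0.56, -0.81 and -0.58. The gene called with TNFa was Cdkn2c (-0.47, adjusted p = 0.0108), which was also lower with TSG-6 and HA (-0.46, adjusted p = 0.0240). Within a set each treated wild-type group is 1 array, so a test there assumes that this array varies like those of the other groups. Within set a alone, 4 genes were lower with LPS (0.539% of all genes) and 2 with TSG-6 and HA (0.242%). Within set b these were 0 (0.319%) and 3 (1.62%). The sets were found from these arrays, and the labels give no ground for them.

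From the further lists, Ska1, a kinetochore gene, fell with LPS in wild-type cultures (-0.85 ± 0.19, adjusted p = 0.0100). Kntc1, another, fell with TSG-6 (-0.76 ± 0.18, adjusted p = 0.0351) and with TSG-6 and HA (-0.70 ± 0.18, adjusted p = 0.0455). They were the only genes called among 58 mitosis genes there, and 0 of 35 replication genes passed in any wild-type treatment. Of the p53 targets Gadd45b rose with TNFa (0.96 ± 0.20, adjusted p = 0.00318).

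In knockout-labelled cultures the gene called under most treatments was an inhibitor, Cdkn2c, under 3 of 5. Cdkn2c fell with TNFa by -1.39 ± 0.15 (adjusted p = 9.02e-09), from untreated levels of 0.49 to 1.23 down to -0.68, -0.69, -0.45 and -0.28. All 4 treated cultures lay below all 8 untreated ones and came within the wild-type range at their lowest. Cdkn2c also fell with TSG-6 and HA (-0.70 ± 0.15, adjusted p = 0.00166), where the levels were -0.10, 0.05, 0.16 and 0.55, and with TSG-6 alone (-0.61 ± 0.17, adjusted p = 0.0246), where they were -0.05, 0.24 and 0.56. Each of these groups overlapped the untreated cultures by 1 array. With LPS (0.30, 0.37, 0.81 and 1.02) and HA (0.33, 0.54, 0.78 and 0.98) the levels stayed inside or near the untreated range, and the differences of -0.24 ± 0.15 and -0.21 ± 0.15 did not pass. The call with TSG-6 alone ended without replicate 1 or 2 of that group (-0.46 and -0.60) or without the arrays rich in 18S (-0.49, adjusted p = 0.181), while the TNFa fall held in each set (-1.31 in set a and -1.46 in set b).

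**Figure D5:**
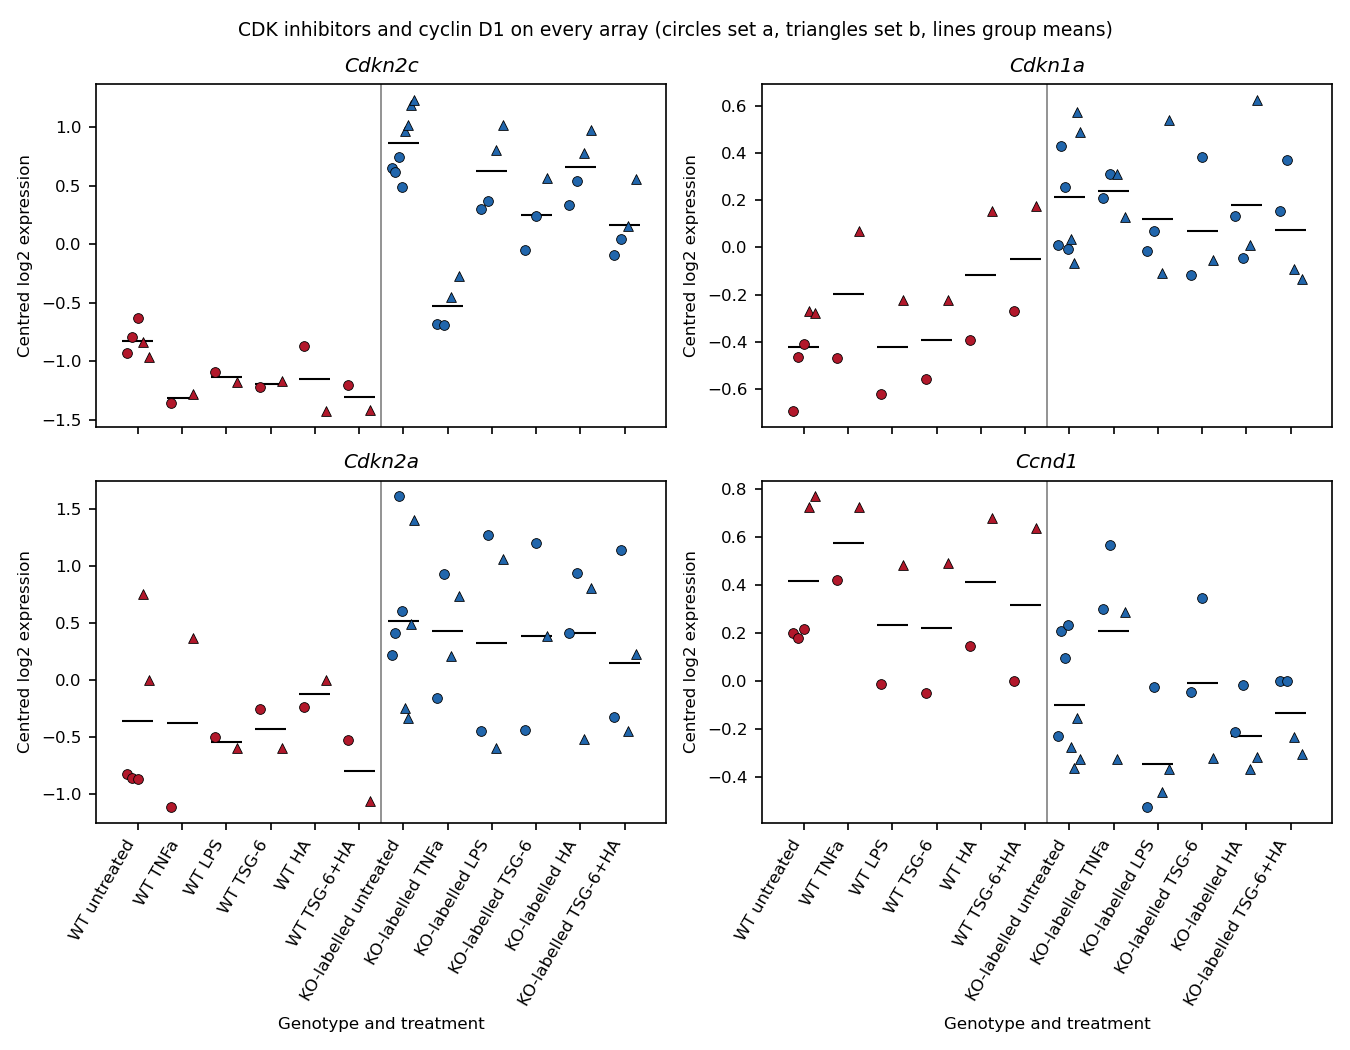
Centred log2 expression of the CDK inhibitor genes Cdkn2c, Cdkn1a and Cdkn2a and of Ccnd1 (cyclin D1) on each array, by genotype and treatment; circles are set a, triangles set b and lines group means. For Cdkn2c the 4 knockout-labelled TNFa arrays lie between -0.69 and -0.28, below the untreated 0.49 to 1.23. The other panels show overlapping treated and untreated arrays, except for Cdkn1a in wild-type cultures with TSG-6 and HA. Those arrays, at -0.2698 and 0.1759, lie above the untreated ones, the first only just (highest untreated -0.27).

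Few other genes of the 41 passed in knockout-labelled cultures without a block. With TNFa 3 passed, 2 lower (7.32% of all genes) and 1 higher (6.71%). Besides Cdkn2c these were Mcm7 (-0.45 ± 0.13, adjusted p = 0.0166) and Pcna (0.27 ± 0.08, adjusted p = 0.0250). Mcm7 had levels of -0.01, -0.04, -0.64 and -0.53 against -0.05 to 0.46 in untreated cultures, so the low pair was set b. Pcna had 0.13, 0.17, -0.06 and 0.00 against -0.45 to -0.00. Leaving out untreated replicate 3 or 4, or TNFa replicate 1 or 2, ended the Pcna call (0.24 to 0.25), and leaving out TNFa replicate 3 or 4 ended that of Mcm7 (-0.33 and -0.37). With TSG-6 and HA 2 genes were lower (6.61% of all genes) and 0 higher (3.33%), Cdkn2c and Mcm7 (-0.42 ± 0.13, adjusted p = 0.0361). The Mcm7 call there ended without untreated replicate 3, 4 or 8 or treated replicate 2 or 4 (-0.41 to -0.31). With the arrays rich in 18S left out, neither Pcna with TNFa (0.25, adjusted p = 0.221) nor Mcm7 with TSG-6 and HA (-0.25, adjusted p = 0.401) passed. With TSG-6 Cdkn2c alone passed (1 lower, 2.65% of all genes). With LPS and HA 0 passed (1.79% and 0.643% of all genes), and 1 did in each at an unadjusted p under 0.05 (10.0% and 6.90%). As shares of the 41 genes these counts, all without a block, are below the background. With the replicate number as a block more genes passed for TNFa, LPS, HA and TSG-6 with HA. Those counts are in the last section, without shares of all genes, and the labels state no such pairing.

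The proliferation markers Mki67 and Top2a passed under no treatment in knockout-labelled cultures, without a block or with the set as a block. Mki67 had levels of -1.26, -0.73, -0.90 and -0.90 with TNFa, the first of them below the untreated range of -0.91 to 0.49, and its difference was -0.62 ± 0.29 (adjusted p = 0.182). With LPS it had 0.08, -0.02, -0.94 and -1.20, with HA -1.23, -0.17, -1.14 and -0.93, and with TSG-6 and HA 0.04, -0.53, 0.01 and -0.47. Of these, 2 LPS and 3 HA cultures lay below the untreated range, and each group overlapped it. With TSG-6 its levels were 0.29, 0.59 and -0.26, 1 of them above the untreated range, and the highest group mean of the knockout-labelled cultures, with a difference of 0.54 ± 0.32 (adjusted p = 0.463). The medians of the 24 mitosis genes were -0.17 with TNFa, -0.16 with LPS, -0.17 with HA, 0.13 with TSG-6 and 0.05 with TSG-6 and HA. Ccnd1 gave 0.31 ± 0.17 with TNFa (adjusted p = 0.259) from levels of 0.30, 0.57, -0.32 and 0.29, and -0.24 to 0.09 otherwise. Cdkn1a, Cdkn2a and E2f1 did not pass under any treatment, and the Cdkn1a differences ran from -0.14 to 0.03.

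With the set as a block in knockout-labelled cultures, the TNFa counts were 3 higher (8.93% of all genes) and 5 lower (10.1%). Ccnd1 (0.31, adjusted p = 0.0256), Tpx2 (0.41, adjusted p = 0.00286) and Pcna were the higher ones. Ccnb2 (-0.36), Cdc20 (-0.44), Ccna2 (-0.32), Mcm7 and Cdkn2c were the lower ones. For LPS 2 were lower (2.05% of all genes), Mcm7 and Cdc20, and for HA 1 (0.720%), Mcm7.

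Further inhibitors and regulators moved with TNFa in knockout-labelled cultures. Cdkn1c, which encodes p57, fell by -1.44 ± 0.18 (adjusted p = 1.76e-07), Rbl2, the retinoblastoma-like protein p130, by -0.63 ± 0.13, Cdkn1b (p27) by -0.66 ± 0.20 and Tfdp2, a dimer partner of E2F factors, by -0.88 ± 0.13. Myc rose by 0.78 ± 0.16 (adjusted p = 0.000445) and Lin9 by 0.46 ± 0.13, which made 2 higher and 4 lower of 27 in that list. Cdkn1c and Rbl2 also fell with TSG-6 (-0.87 and -0.54) and with TSG-6 and HA (-1.16 and -0.59), and Cdkn2b fell in both (-0.39 and -0.33). These comparisons share the 8 untreated arrays. In the replication list 1 of 35 genes was lower with TNFa (Prim1, -0.61 ± 0.16) and in the mitosis list 2 of 58 (Ckap2 and Spc25, -0.45 and -0.34). Of 19 p53 target genes 3 rose and 6 fell with TNFa, among them Gadd45b (0.94 ± 0.15) and Gadd45a (0.58 ± 0.09) upwards and Pmaip1 (-0.89 ± 0.19) downwards.

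The difference between the genotypes in a response was tested for each treatment. In limma 0 of the 41 genes passed for TNFa, LPS, TSG-6, HA or TSG-6 with HA (0.808%, 0.214%, 0.0824%, 0.0440% and 0.181% of all genes). At an unadjusted p under 0.05 there were 3, 2, 5, 1 and 6 genes (7.04%, 2.97%, 4.05%, 2.20% and 7.05% of all genes). For Cdkn2c under TNFa the knockout-labelled fall exceeded the wild-type one by -0.90 ± 0.26 (adjusted p = 0.101), and with the set as a block by -0.91 (adjusted p = 0.000169), where Mcm7 also passed (-0.61, adjusted p = 0.0291, 2 lower against 0.813% of all genes). With the set as a block Cdk1 passed for LPS (0.56, adjusted p = 0.00944, 1 higher against 0.209%). For TSG-6 and HA, Anln, Aurka, Kif11 and Kif23 passed (0.82, 0.67, 0.87 and 0.60, 4 higher against 0.539%). The wild-type responses (treated minus untreated), not the wild-type levels, were the lower. For Kif11 without the block the LPS value was 0.82 ± 0.23 (adjusted p = 0.342).

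Treatments were also set against each other. TSG-6 with HA against either alone gave 0 genes in both genotypes, with 0% of all genes against TSG-6 and 0.00550% and 1.79% against HA in wild-type and knockout-labelled cultures. At an unadjusted p under 0.05 that last comparison gave 4 genes (10.6% of all genes). The other 3 gave 0, with 2.51% and 3.19% of all genes in wild-type cultures and 3.36% in knockout-labelled ones. TNFa against LPS gave 0 genes in wild-type cultures (0.445% of all genes), with 39 of the 41 values above 0 and 11 at an unadjusted p under 0.05 (4.75% of all genes). Many of these genes moved together from array to array, so the 39 values are not separate observations. Top2a, for example, was at 1.78 and 2.29 with TNFa and at 0.68 and 1.47 with LPS, a difference of 0.96 ± 0.31 (adjusted p = 0.338). In knockout-labelled cultures Cdkn2c was the 1 gene that passed (-1.15 ± 0.17, adjusted p = 1.89e-05, 1 lower against 1.05% of all genes). With the set as a block, TSG-6 with HA against HA in knockout-labelled cultures gave 1 higher (1.60% of all genes), Aurka (0.47, adjusted p = 0.00987), and 1 lower (2.90%), Cdkn2c (-0.49, adjusted p = 0.00186). In that fit TNFa against LPS gave 2 higher in wild-type cultures (0.775% of all genes), Cdk1 (0.56) and Mcm7 (0.58). In knockout-labelled ones it gave 3 higher (3.96%), Ccnd1 (0.55), Mcm3 (0.72) and Tpx2 (0.52), and Cdkn2c lower (1 gene, 2.27%).

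The mitosis genes kept together array by array. The correlation of each of the 24 with the mean of the other 23 had a median r of 0.978 over the 42 arrays (0.895 for Cenpf to 0.991 for Kif23). Since the genotypes alone set much of that, the deviations from the 12 group means were also taken, and their median r was 0.861 (0.569 for Kif11 to 0.942 for Kif23). The replication genes followed the same mean less closely within groups, with a median of 0.638, from 0.792 for Rrm2 down to -0.297 for Rrm1. Cdkn2c ran against it (-0.840 over all arrays and -0.763 within groups), whereas Cdkn1a was at 0.132 and Cdkn2a at 0.0809 within groups. All these points share their arrays, and part of the within-group values is the pair of sets.

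The genes outside the 42 whose pattern over the 42 arrays was most like the mean of the mitosis genes were Cep55 (r = 0.989), Ube2c (0.988), Tk1 (0.987), Pbk (0.985), E2f7 (0.980), Hmmr (0.978), Gfod1 (0.976), Fbxo5 (0.975), Nuf2 (0.975) and Fabp5 (0.974). Of these, Ube2c, Tk1, Pbk, E2f7, Hmmr and Nuf2 stood in the further lists of cell cycle genes. Cep55 acts in the final cut between daughter cells, and Fbxo5 restrains the anaphase-promoting complex. Fabp5, a fatty acid binding protein, had an untreated difference of -3.50, larger than that of Mki67.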

How the data were processed

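RNA of 42 cultures was hybridised to 1 array each. The authors deposited log2 values per probe set made with RMA, per the submitters' processing notes; the log base was inferred from the range of values (up to 9.81 within a probe set), and each probe set has a median of 0 over the 42 arrays. Array medians lay between -0.0239 and 0.0252. Versions, genome build and background calls are not given in the sources used here. Of 45101 probe sets 34958 had 1 gene in the platform annotation, 932 several and 9211 none, and 34754 were matched to current symbols by gene number. For each gene the probe set with the largest SD was used, passing over those with a correlation above 0.7 with the 18S probe set.

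Group means of the 12 groups were fitted in limma 3.58.1 (R 4.3.3; 30 residual and 4.23 prior degrees of freedom), which was tested on simulated data. Benjamini-Hochberg adjustment ran over 18194 genes within each comparison. For the 41 genes, 52 probe sets were not used: 31 gave the same untreated call, 0 the opposite, 20 none, and 1 (Tyms) was lower where the one used did not pass. The members and lists were chosen with earlier results of these data known, and the 5 genotype comparisons under treatment were added to the planned ones. Named genes are Mki67, Ccnd1, Cdkn1a, Cdkn2a, Cdkn2c and E2f1, up to 6 with the smallest adjusted p in a comparison, the lead of each role, and up to 4 of each further list. Others were named after their values were seen. Culture sets were found, after the data were seen, from probe sets with a gap of at least 1 log2 unit and at least 5 arrays on each side (33 of 42 such probe sets split the wild-type arrays alike, 12 of 25 the knockout-labelled). An array counts as high in 18S above 1 (15 arrays, 5 of them wild-type). No pair of arrays of a group was a duplicate (SD of the difference 0.186 to 0.427 within groups). The labels do not say what a replicate number shares, so the numbers were not taken as a pairing. Not every same-numbered pair correlated above 0.1. Within knockout-labelled sets 32 of 46 such pairs did, against 43 of 102 pairs with other numbers. Counts with the number as a block are given in the last section. Figures were drawn with matplotlib 3.10.9.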

Additional observations from a re-analysis of the deposited data

How the results depend on the processing

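Counts are of the 41 genes passing the limma test, and the cause was not tested where a count moved. Shares of all genes for the culture set block are given above. The other counts stand without such shares, so they do not show whether the 41 genes moved more than other genes. Averaging probe sets gave 2 genes for TNFa against LPS in knockout-labelled cultures. Quantile normalization gave 0 for LPS and 0 for TSG-6 with HA in wild-type cultures, and in knockout-labelled cultures 1 for LPS, 2 for TSG-6 and 2 for TNFa against LPS, with 1 for the genotype difference in the TNFa response. A block for the culture set (chosen after seeing the data for the genotype comparisons) gave wild-type counts of 1 for TNFa, 13 for LPS, 4 for TSG-6, 13 for TSG-6 with HA and 2 for TNFa against LPS. The knockout-labelled ones were 8 for TNFa, 2 for LPS, 1 for HA, 2 for TSG-6 with HA against HA and 4 for TNFa against LPS, and the genotype differences in response were 2 for TNFa, 1 for LPS and 4 for TSG-6 with HA. Leaving out the 15 arrays rich in 18S, so with fewer samples, gave 0 for TSG-6 with HA in wild-type cultures, 0 for TSG-6 and 1 for TSG-6 with HA in knockout-labelled ones, and 19 and 12 between genotypes under LPS and under TSG-6 with HA. Same-numbered knockout-labelled arrays of 1 set deviated together more often than others (median r 0.445, 32 of 46 pairs above 0.1, against 0.0387 and 43 of 102 for other numbers), but not across sets (2 of 9 pairs), and wild-type arrays of a set did so with either number (0.522 and 0.523). This is a hint from the data of a pairing that the labels do not state. The replicate number as a block gave 1 for TSG-6, 1 for HA and 1 for TNFa against LPS in wild-type cultures. In knockout-labelled cultures it gave 13 for TNFa, 10 for LPS, 5 for HA, 5 for TSG-6 with HA, 3 for TSG-6 with HA against HA and 5 for TNFa against LPS. The number does not follow the set. Wild-type number 2 and knockout-labelled numbers 3 and 4 were set a when untreated and set b when treated. Leaving out 1 replicate gave 37 to 39 for untreated genotypes, and under treatment 32 to 35 for TNFa, 24 to 34 for LPS, 16 to 32 for TSG-6, 28 to 34 for HA and 22 to 31 for TSG-6 with HA. It gave 0 to 1 for LPS, HA, TSG-6 with HA and TNFa against LPS in wild-type cultures, and in knockout-labelled ones 2 to 3 for TNFa, 0 to 1 for TSG-6, 1 to 2 for TSG-6 with HA and 1 to 2 for TNFa against LPS. The other 128 counts, and 246 that left out 1 replicate, stayed within 1.5 times. Of the differences of named genes, 610 kept their side of the threshold, 6 gained and 9 lost it in the fits that left out no single replicate. With 1 replicate left out these were 902, 3 and 21, and 0 reversed in either. The tally held Mki67, Ccnd1, Cdkn1a, Cdkn2a, Cdkn2c and E2f1 and up to 6 genes called in a comparison as reported. Other genes gained with a block could not enter it. Few arrays a group, and no reading of background, limit what could be detected.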
